A study of Mus musculus with 34 samples.

Results

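Microvillus cytoskeleton and adhesion genes encode the actin core of the brush border, its links to the membrane and the protocadherin complex that holds microvilli together. The 10 genes Vil1, Vill, Ezr, Espn, Eps8, Myo1a, Myo7b, Cdhr2, Cdhr5 and Ush1c were set by name, from 21938 protein-coding genes of the GENCODE M21 annotation. H3K4me3, a histone mark found at active promoters, was profiled with CUT&RUN in cells scraped from the villi of the mouse small intestine, in 2 libraries of wild-type mice and 2 of ApcMin/+ mice. In CUT&RUN an antibody tethers a nuclease to the mark in unfixed nuclei, and the DNA fragments that it releases are sequenced. All mice were of the C57BL/6J strain. Their age is 5 weeks in the sample labels, and a different age, 6 weeks, is given in the methods text. ApcMin/+ mice carry a heterozygous germline mutation of Apc in every cell, develop intestinal adenomas, and gave intestine of normal appearance for these libraries. The genotype labels set the groups, although the preparation text of all 4 libraries names ApcMin/+ mice. The methods text lists a pair of mice per genotype at each age without tying them to libraries, so p-values measure only the spread between these libraries. Values of a pair of libraries are given with replicate 1 first.

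Enterocytes, the absorptive cells of the villus, carry a dense array of microvilli on their apical surface. Each microvillus has a core of parallel actin filaments, crosslinked by villin (Vil1), espin (Espn) and fimbrin, with the capping and bundling protein Eps8 at its tip. Ezrin (Ezr) and the motor myosin-1a (Myo1a) tie the core to the plasma membrane. Neighbouring tips are joined by the protocadherins Cdhr2 and Cdhr5, which are anchored inside the cell by the scaffold harmonin (Ush1c) and the motor myosin-7b (Myo7b). A like tip-link complex of Cdh23, Pcdh15, harmonin and Myo7a works in the stereocilia of the inner ear. Vill encodes a relative of villin whose role is less well known.

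The deposited values were coverage signal per base, scaled to 10000000 tags per library, so that the genome-wide mean was about 0.367 in every library. A promoter's signal was its mean over 1000 bp on each side of the gene's 5′ end, and promoters with a mean of at least 2 over the 4 libraries, 9930 of 21938, were tested and are called marked. The libraries held between 1430000 tags (wild-type replicate 1) and 5470000 tags (ApcMin/+ replicate 2). ApcMin/+ replicate 1 stood apart, with 43.3% of its signal in enriched regions against 11.9% to 22.6% in the others, and with a median tested promoter of 13.2 against 3.06 to 4.53. Among the marker genes of cell types, 7 of 9 enterocyte promoters were marked, as were 3 of 6 of crypt cells, 1 of 6 of enteroendocrine cells and none of 6 goblet, 5 Paneth, 6 tuft, 8 immune and 7 mesenchyme genes. The enteroendocrine gene was Sct, which lies beside Cdhr5 in the same enriched region. At the strongest annotated start of each gene, 9 of 9 enterocyte, 4 of 6 crypt and 1 of 6 enteroendocrine genes reached a mean of 2. So did 1 of 8 immune genes, Coro1a (2.75), and 1 of 7 mesenchyme genes, Vim (2.55), but no goblet, Paneth or tuft gene. The summed signal of the 8 immune promoters was 5.88 and 5.49 in the wild-type pair and 10.3 and 6.39 in the ApcMin/+ pair. That of the 7 mesenchyme promoters was 3.49 and 3.88 against 6.35 and 5.94. Both sums were higher in ApcMin/+, and their part in the members' values was not tested. Since whole scrapings were profiled, fewer cells with a mark and less of the mark per cell cannot be told apart.

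The promoter sequences are shown because the members differed in their CpG content and in which of their starts carried the mark. They run 5′ to 3′ on the strand of the gene, from 250 bases before to 50 bases after a transcript start, with CG dinucleotides in capitals. The Vil1, Cdhr2, Ezr and Espn windows are those of the RefSeq promoter table of build GRCm38.p6, the same assembly as the tracks, which matched 8 of the 10 genes. Those of Eps8 were read from that assembly at RefSeq transcript starts.
Vil1, 5′ end, chr1:74409134-74409433, plus strand: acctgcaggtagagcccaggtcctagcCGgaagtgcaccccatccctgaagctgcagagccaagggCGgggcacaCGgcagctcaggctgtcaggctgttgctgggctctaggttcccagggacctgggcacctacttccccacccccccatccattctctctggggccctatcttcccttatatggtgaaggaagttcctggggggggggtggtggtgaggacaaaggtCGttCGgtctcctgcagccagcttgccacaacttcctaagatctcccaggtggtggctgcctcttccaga
Cdhr2, 5′ end, chr13:54701213-54701512, plus strand: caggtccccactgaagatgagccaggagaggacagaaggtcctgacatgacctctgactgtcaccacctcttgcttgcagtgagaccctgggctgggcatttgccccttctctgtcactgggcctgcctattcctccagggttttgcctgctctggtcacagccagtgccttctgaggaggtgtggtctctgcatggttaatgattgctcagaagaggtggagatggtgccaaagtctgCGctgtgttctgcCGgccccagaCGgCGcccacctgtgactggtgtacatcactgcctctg
Ezr, 5′ end, chr17:6782731-6783030, minus strand: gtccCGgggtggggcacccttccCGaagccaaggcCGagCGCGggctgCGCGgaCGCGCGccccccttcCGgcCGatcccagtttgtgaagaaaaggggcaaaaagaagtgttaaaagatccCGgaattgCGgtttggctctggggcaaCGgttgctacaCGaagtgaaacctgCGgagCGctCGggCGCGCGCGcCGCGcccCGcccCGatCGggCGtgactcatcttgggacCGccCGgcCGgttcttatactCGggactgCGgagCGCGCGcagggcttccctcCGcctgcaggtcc
Espn, 5′ end, chr4:152152340-152152639, minus strand: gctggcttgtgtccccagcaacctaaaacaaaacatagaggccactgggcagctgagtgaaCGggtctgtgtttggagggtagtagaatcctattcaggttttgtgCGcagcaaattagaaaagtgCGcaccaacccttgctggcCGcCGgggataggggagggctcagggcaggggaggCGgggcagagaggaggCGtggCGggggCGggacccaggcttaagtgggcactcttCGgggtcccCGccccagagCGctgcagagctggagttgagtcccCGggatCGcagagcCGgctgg
Espn, internal start, chr4:152128876-152129175, minus strand: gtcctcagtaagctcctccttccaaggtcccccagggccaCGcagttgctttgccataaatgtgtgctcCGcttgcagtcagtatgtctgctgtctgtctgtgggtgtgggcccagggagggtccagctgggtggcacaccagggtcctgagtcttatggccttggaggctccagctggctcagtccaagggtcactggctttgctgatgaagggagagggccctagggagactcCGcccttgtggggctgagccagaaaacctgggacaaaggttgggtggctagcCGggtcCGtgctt
Eps8, internal start near the 5′ end, chr6:137649236-137649535, minus strand: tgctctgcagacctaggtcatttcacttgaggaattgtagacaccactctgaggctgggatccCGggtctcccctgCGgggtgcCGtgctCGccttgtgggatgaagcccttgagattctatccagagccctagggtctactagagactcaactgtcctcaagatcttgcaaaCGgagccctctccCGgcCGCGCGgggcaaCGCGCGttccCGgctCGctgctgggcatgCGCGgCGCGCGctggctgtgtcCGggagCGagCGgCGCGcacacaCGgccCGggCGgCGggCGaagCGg
Eps8, distant internal start, chr6:137570960-137571259, minus strand: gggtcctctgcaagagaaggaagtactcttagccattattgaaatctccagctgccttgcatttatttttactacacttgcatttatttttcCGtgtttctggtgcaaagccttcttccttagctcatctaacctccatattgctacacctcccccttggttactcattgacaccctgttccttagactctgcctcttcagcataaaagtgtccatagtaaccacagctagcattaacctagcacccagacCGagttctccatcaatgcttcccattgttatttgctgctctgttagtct

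The CG count was 5 in Vil1, 4 in Cdhr2 and 38 in Ezr, beside a median of 7 over the 32851 windows of the table. Espn had 15 at its 5′ end and 5 at its internal start, and Eps8 had 30 at the start near its 5′ end and 2 at the distant start.

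H3K4me3 was high at the 5′ ends of 7 of the 10 genes and had a mean under 2 at the other 3. Mean signals lay between 9.34 and 14.2 at Cdhr5, Vil1, Myo7b, Cdhr2, Ezr, Ush1c and Myo1a, whereas Vill, Espn and Eps8 lay between 0.41 and 0.85. In each library the lowest of the 7 was above the highest of the 3, with 6.65 against 0.62 and 2.98 against 0.88 in the wild-type pair, and 20.6 against 1.39 and 5.63 against 1.55 in the ApcMin/+ pair. Ranked among all protein-coding promoters of the same library, the 7 lay between the percentiles 76.3 and 99.8, and the 3 between 6.81 and 52.1. Over the 10 genes the median percentile was 92.0. Neighbours in the order of the 7 were not separated, since none kept its order in all 4 libraries and Myo7b and Cdhr2, like Ush1c and Myo1a, changed places in 2 of 4.

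**Figure D1:**
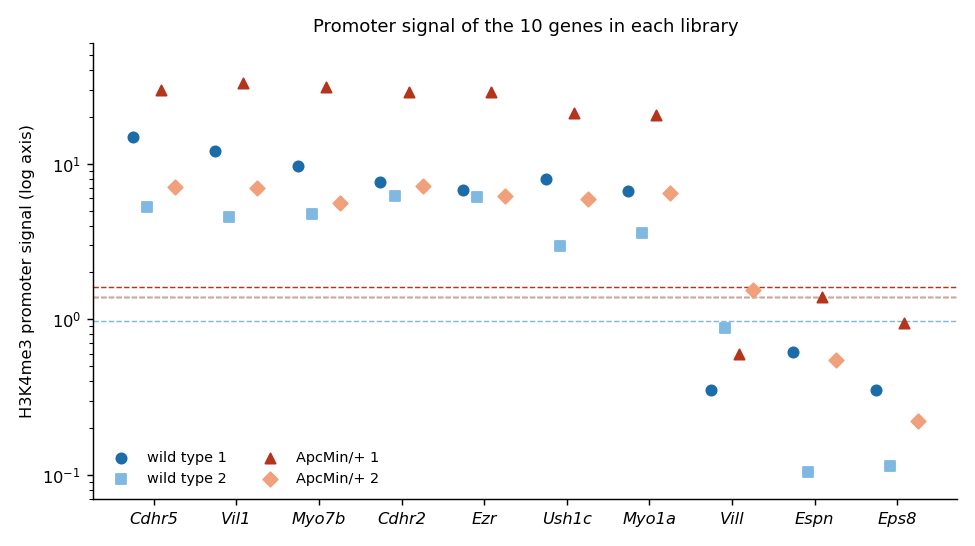
H3K4me3 signal within 1000 bp of the annotated 5′ end of each gene (log axis) in the 4 libraries, with genes ordered by their mean and dashed lines at each library's median over all protein-coding promoters. The 7 genes on the left lie above those medians in every library, and ApcMin/+ replicate 1 gives their highest value.

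Villin, the main actin bundler and severing protein of the core, was among the most strongly marked of the genes. At the Vil1 5′ end (chr1:74408376-74410376) the wild-type pair gave a signal of 12.1 and 4.55, and the ApcMin/+ pair 33.1 and 6.97. These values rested on 35, 44, 245 and 76 fragments, of which the first had an exact 95% Poisson interval of 24.4 to 48.7, which covers counting error only. They lay at the percentiles 99.0, 92.0, 99.0 and 95.7 of their libraries. The mark reached from 1975 bp upstream to 6724 bp downstream of the start in an enriched region of 8700 bp. The highest stretch of 200 bp was searched, in every gene, only from 2000 bp upstream to 4000 bp downstream. At Vil1 it began between 1650 and 2550 bp downstream in all 4 libraries.

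Vill, the villin relative, was not marked at any of its 8 annotated starts, the highest of which had a mean of 0.87. The signal at its 5′ end (chr9:119051778-119053778) was 0.35 and 0.88 in the wild-type pair and 0.60 and 1.55 in the ApcMin/+ pair. These were 1, 8, 4 and 17 fragments, and the groups overlapped. Vil1 was higher than Vill in 4 of 4 libraries, by 2.72 ± 1.37 on the log2(signal + 1) scale (SD, n = 4). An exact two-sided sign-flip permutation test over 4 libraries gave p = 0.125, the smallest that it can give.

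Of the other relatives of villin, Svil and Flii were marked at mean levels of 11.2 and 10.3, and Scin and Gsn at 5.69 and 2.15. Gsn reached 2 only through ApcMin/+ replicate 1 (3.58), with 1.86 and 1.47 in the wild-type pair and 1.69 in ApcMin/+ replicate 2. Avil (0.67) and Capg (0.66) were not marked at their 5′ ends. Vil1 was above Avil, Gsn and Capg in 4 of 4 libraries, above Flii and Scin in 3 of 4, and above Svil in 2 of 4.

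Espin, a bundler with many isoforms, carried the mark at an internal start and not at the 5′ end of the gene. At the 5′ end (chr4:152151371-152153371) the signal was 0.62 and 0.10 in the wild-type pair and 1.39 and 0.55 in the ApcMin/+ pair, on between 1 and 10 fragments. At the start of transcript Espn-202, 23446 bp downstream and within intron 8 of the transcript that begins at the 5′ end, it was 9.74, 4.75, 18.3 and 5.70 in the same order. That start, chr4:152128925, is also the start of a curated RefSeq transcript, and 13 starts of Espn were annotated in all. Its 4 values lay between the percentiles 87.4 and 96.9 of all gene 5′ ends and rested on 28, 45, 136 and 62 fragments, so that every library showed the internal start above the 5′ end. An enriched region of 5900 bp (chr4:152127201-152133100) covered this start and a group of starts 20034 to 21141 bp downstream of the 5′ end, and overlapped no other annotated gene. The curated start 16046 bp downstream had a mean of 1.48. A second region, of 1000 bp and 13071 to 14070 bp downstream, had a mean of 6.8 and held no annotated start.

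Eps8, which caps and bundles the actin filaments at the microvillus tip, was likewise marked inside the gene only. The signal at its 5′ end (chr6:137653876-137655876) was 0.35 and 0.11 in the wild-type pair and 0.94 and 0.22 in the ApcMin/+ pair, and no RefSeq transcript began there. At the curated RefSeq start 83867 bp downstream, in intron 2 of the GENCODE transcript with the most upstream start, it was 4.18, 2.92, 16.3 and 4.70 in the same order. At the curated start 5591 bp downstream, in intron 1, it was 3.84, 1.67, 12.4 and 3.10. Both internal starts were above the 5′ end, which held 1 to 7 fragments, in all 4 libraries. The distant start was above the near start in all 4, on 12, 28, 121 and 51 fragments against 11, 16, 92 and 34. With 12 against 11 fragments, wild-type replicate 1 did not separate these starts. Their enriched regions, chr6:137566901-137571400 and chr6:137647701-137649900, overlapped no other annotated gene. The starts between these, 65850 to 78064 bp downstream, and those from 116787 bp onwards had means of at most 0.58.

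**Figure D2:**
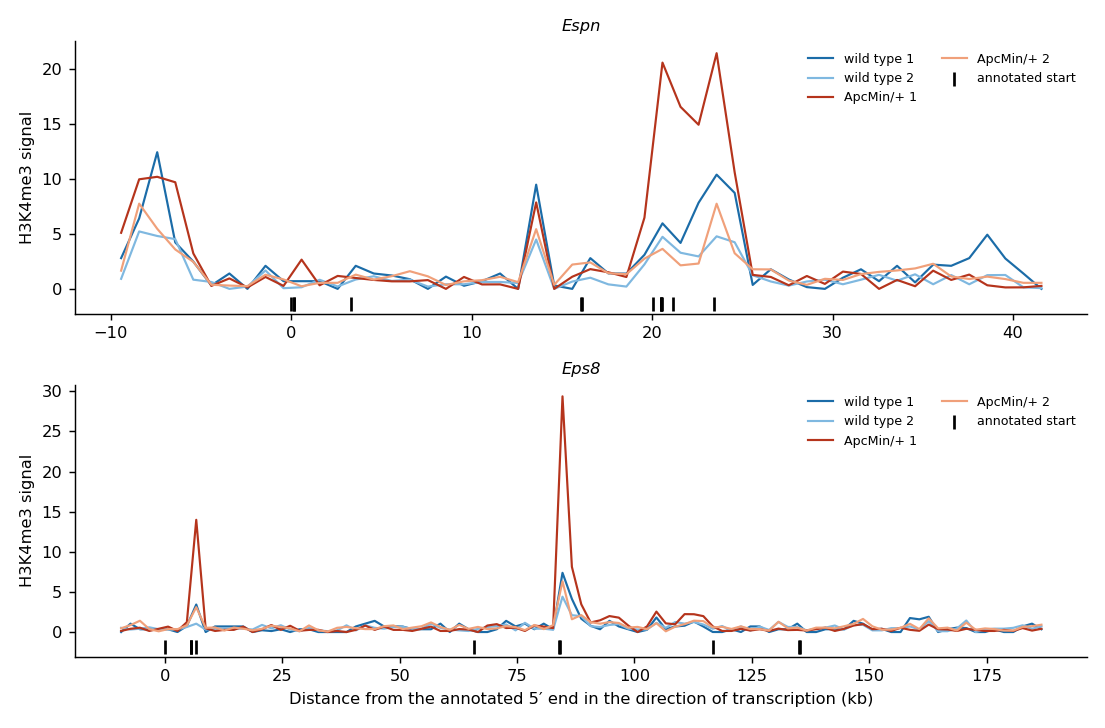
H3K4me3 signal along Espn (mean per 1000 bp) and Eps8 (mean per 2000 bp) against the distance from the annotated 5′ end in kb, for the 4 libraries, with black ticks at annotated transcript starts. The signal rises at starts 20034 to 23446 bp inside Espn and 5591 and 83867 bp inside Eps8 and is low at both 5′ ends, while the peak upstream of Espn lies at the neighbouring gene Hes2.

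Few genes were marked at an internal start alone. Of 12008 protein-coding genes with a mean under 2 at the 5′ end, 866 (7.21%) reached 2 at another annotated start. With the strongest annotated start of each gene, 9 of the 10 members and 10796 of the 21938 genes were marked. Since that start was chosen for its signal, its level is a description.

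Ezrin, the linker between actin and membrane proteins, was the one marked member with a CpG-rich promoter. The signal at its 5′ end (chr17:6781784-6783784) was 6.79 and 6.15 in the wild-type pair and 29.0 and 6.22 in the ApcMin/+ pair, on 19, 59, 215 and 68 fragments. The mark spread over 7800 bp, from 1316 bp upstream to 6483 bp downstream. In wild-type replicates 1 and 2 and in ApcMin/+ replicate 2 the highest 200 bp began 2750 to 3000 bp downstream, and in ApcMin/+ replicate 1 at 500 bp. Of the other ERM proteins, the relatives of ezrin, radixin (Rdx) had a mean of 0.59 and moesin (Msn) 1.01, neither reaching 2 at any annotated start. Ezr was above Rdx by 2.77 ± 1.13 and above Msn by 2.39 ± 0.91 (log2 scale, SD, n = 4), in 4 of 4 libraries each (exact sign-flip permutation p = 0.125).

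Myosin-1a, the motor that links the core laterally to the membrane, had most of its signal upstream of the annotated 5′ end. The signal around that end (chr10:127704170-127706170) was 6.65 and 3.60 in the wild-type pair and 20.6 and 6.52 in the ApcMin/+ pair. The part downstream held 36.7% and 39.1% of it in the wild-type pair and 18.9% and 40.4% in the ApcMin/+ pair. The highest 200 bp began 1650 bp upstream in 3 of 4 libraries and 200 bp upstream in wild-type replicate 2. A predicted RefSeq transcript starts at -1734 bp from the GENCODE end. The wild-type pair gave 7.80 and 2.3 there, and the ApcMin/+ pair 24.1 and 4.23. Myo1a was above its class I relatives Myo1c, Myo1d, Myo1f, Myo1g and Myo1h in 4 of 4 libraries and above Myo1e, whose mean was 12.0, in 1 of 4. Myo1c, low at its 5′ end (0.80), had a mean of 6.02 at another annotated start.

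The adhesion complex was marked at all of its member genes. Cdhr5, a mucin-like protocadherin, had the highest mean of the 10, with 14.8 and 5.25 in the wild-type pair and 29.7 and 7.12 in the ApcMin/+ pair (chr7:141275786-141277786). Its partner Cdhr2 gave 7.67 and 6.18 against 28.9 and 7.21 (chr13:54700461-54702461). The wild-type replicates lay closer to each other at Cdhr2 than at Cdhr5. The cadherin-related genes Cdhr1 (0.47), Cdhr3 (1.01) and Cdhr4 (0.31) were not marked at any annotated start, and Cdhr2 and Cdhr5 were above each of them in 4 of 4 libraries.

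Ush1c, the scaffold, had 8.02 and 2.98 in the wild-type pair and 21.0 and 5.91 in the ApcMin/+ pair (chr7:46237503-46239503). Most of it lay downstream of the start, between 86.4% and 95.6% in wild-type replicates 1 and 2 and ApcMin/+ replicate 1 and 76.1% in ApcMin/+ replicate 2. For Myo7b, the motor of the complex, the values were 9.69 and 4.78 against 31.0 and 5.63, with 72.1% to 88.2% of the signal downstream. In both genes wild-type replicate 1 was above wild-type replicate 2, and the groups overlapped.

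Among the listed partners of the complex, the scaffold Anks4b (9.10 and 3.64 in wild type, 28.1 and 5.42 in ApcMin/+) and the light chain Calml4 (15.0 and 5.25, 35.2 and 6.42) were marked like the members. Tmigd1, an adhesion protein, was not, at a mean of 0.40. Of the 17 hair cell counterparts, 2 were marked, Myo7a at 3.26 and Whrn at 2.39, and Strc (0.24) and Clrn1 (0.19) were lowest. Cdh23 (0.89), Pcdh15 (0.38) and Ush1g (0.81) were not marked, also at their strongest annotated starts. Myo7b was above Myo7a in 4 of 4 libraries, by 1.44 ± 0.58 on the log2 scale (SD, n = 4, exact sign-flip permutation p = 0.125). The 30 pairs compared held only the 7 members marked in these same libraries, so a higher member was largely fixed beforehand where the relative was unmarked. The member was higher in all 4 libraries, which span both genotypes, in 26 of the pairs. With p adjusted over the 30 pairs, those 26 had an exact permutation p of 0.144. Since this test cannot give less than 0.125 with 4 libraries, no pair could pass, and the outcome decides nothing. Vill, Espn and Eps8 were not compared in this way, other than Vill with Vil1.

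The mark lay mostly downstream of the 5′ end at Cdhr2, Cdhr5, Ush1c, Myo7b and Ezr in all 4 libraries and at Vil1 in 3 of them. The median share of the signal downstream was 77.1%, 78.4%, 83.0% and 72.1% over the 7 in the wild-type pair and then the ApcMin/+ pair, beside medians of 68.4%, 65.7%, 69.5% and 65.7% over all tested promoters. The upper quartiles over all tested promoters were 85.0%, 78.6%, 84.6% and 78.4%, so the median of the 7 lay below them in every library. Cdhr2, Cdhr5, Ush1c and Myo7b were at 72.1% or more in every library, Ezr lay between 59.0% and 82.0%, and Vil1 between 44.1% and 67.2%. Myo1a was the exception.

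**Figure D3:**
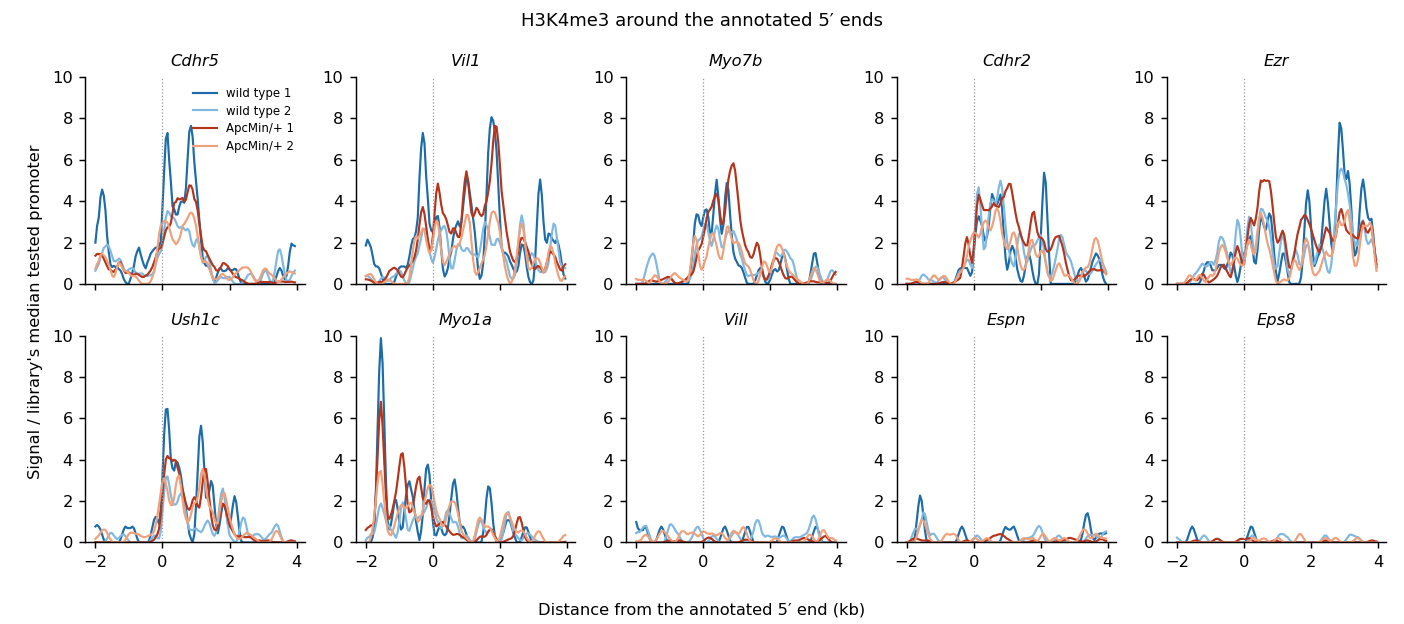
H3K4me3 signal from 2 kb upstream to 4 kb downstream of each annotated 5′ end, divided by the library's median tested promoter and smoothed over 200 bp, for the 4 libraries. The mark of Myo7b, Cdhr2 and Ush1c lies mostly from the start into the gene, that of Cdhr5 is highest there but is also seen upstream, that of Myo1a peaks upstream, and Vill, Espn and Eps8 stay low.

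The marked regions of these genes were wide. Regions were called on the mean of the 4 tracks, where the signal was at least 5 times the genome-wide mean. Their widths were 8700 bp at Vil1, 7800 bp at Ezr, 5900 bp at Myo1a, 5300 bp at Cdhr5, 5100 bp at Cdhr2, 4900 bp at Myo7b and 2800 bp at Ush1c. The region of Cdhr5 also covered Sct. Over the 9652 regions that held a protein-coding 5′ end, the median was 1900 bp and the 95th percentile 4645 bp, so that 6 of the 7 genes were in the widest 5%. When the regions were called without each library in turn, a choice made after seeing the data, 5 or 6 of the 7 were still there. Cdhr2 fell to the percentile 94.1 without wild-type replicate 1, and Myo7b to 87.0 without wild-type replicate 2 and 86.6 without ApcMin/+ replicate 1. Ush1c stayed between 74.8 and 84.9. All 7 genes had a mean signal of at least 9, as did 2317 of the 21938 promoters (10.6%). Whether their regions were wider than those of promoters with a like signal was not tested.

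All the marked genes but Ezr had a CpG-poor promoter. The ratio of observed to expected CpG within 500 bp of the 5′ end was 0.13 in Myo1a, 0.16 in Vil1, 0.17 in Cdhr2, 0.17 in Myo7b, and 0.20 in Ush1c and Cdhr5, and 0.88 in Ezr. The median was 0.75 over the tested promoters and 0.55 over all. Promoters with a ratio of at most 0.2 were rarely marked: 200 of 4992, or 4.01%, had a mean signal of at least 2, compared with 7866 of 10078, or 78.1%, of those above 0.6. The members in that lowest class, Myo1a, Vil1, Cdhr2 and Myo7b, were all among the 200. Espn, at 0.63 at its unmarked 5′ end, ran the other way, with 0.22 at its strongest internal start and 0.56 to 0.75 at the marked starts just upstream of it. Eps8 had 0.79 at the near internal start and 0.29 at the distant start. A low ratio was not particular to the members. The brush border enzymes had a median of 0.21, with 6 of 14 at most 0.2, as were 2 of the 3 listed partners of the adhesion complex. Among these, Alpi (0.04) and Anks4b (0.20) were marked, and Tmprss15 (0.15) and Tmigd1 (0.17) were not.

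**Figure D4:**
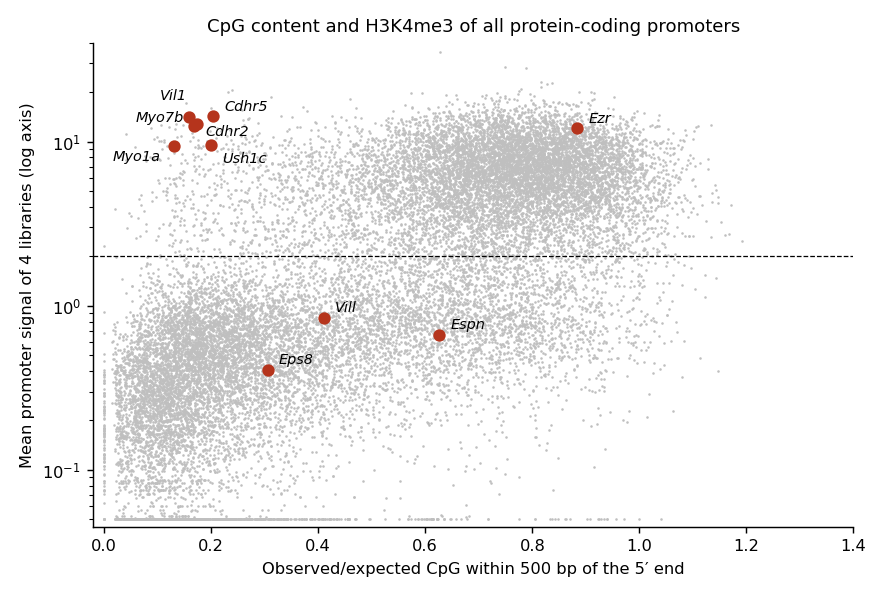
Mean promoter signal of the 4 libraries (log axis, values under 0.05 drawn at 0.05) against observed/expected CpG for all protein-coding promoters in grey and the 10 genes in red, with a dashed line at a signal of 2. Myo1a, Vil1, Cdhr2, Myo7b, Ush1c and Cdhr5 lie above the line at ratios of 0.13 to 0.20, where few other promoters do.

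Short motifs of factors known from the intestinal epithelium were searched on both strands of the 10 windows that the RefSeq table gave for 8 members. Eps8 and Myo7b were not searched, and the counts do not cover the Eps8 sequences printed above. CAAAGT, part of the HNF4 motif, and GTTAAT, part of the HNF1 motif, were found in 1 of the 10, that of Cdhr2, and stand in 14.4% and 7.10% of all 32851 windows. TTTATNG, a CDX motif, was found in the windows of Vill and of the internal start of Espn, and stands in 10.9% of all. GGGCGG, the GC box, was found in 5 of the 10, those of Vil1, Ush1c, Ezr and both the 5′ end and the internal start of Espn, and stands in 35.7% of all. Neither GATAAG, in 7.44% of all windows, nor the TATA box TATAAA, in 13.6%, was found in any of the 10. A match is a description of letters in 300 bases.

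The other genes of the brush border were described from lists, with their promoter level. In the list of core and tip proteins, 16 of 18 were marked, with Capza1 (19.1) and Capzb (16.7), which make the actin capping protein, highest. The other two, Eps8l1 (1.14) and the bundler Fscn1 (0.78), were not marked. Eps8l2 (13.0) and Eps8l3 (9.97), named after their values were seen, were marked at their 5′ ends and were above the unmarked 5′ end of Eps8 in all 4 libraries. At its strongest annotated start Eps8 had a mean of 8.14. Among membrane linkers and motors 8 of 13 were marked at the 5′ end and 11 of 13 at their strongest start. The motors Myo6 (15.9) and Myo1e (12.0) were highest at the 5′ end, and Myo1c (0.80) and the scaffold Slc9a3r2 (0.72) lowest. All 6 measured genes of apical traffic were marked, from the GTPase Rab8a (12.3) and the SNARE protein Vamp8 (11.8) to Stxbp2 (7.90) and Pacsin2 (6.32).

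Brush border enzymes and tight junctions were listed as neighbouring structures. Of the brush border enzymes 8 of 14 were marked at the 5′ end and 13 of 14 at their strongest start. The peptidase Dpp4 (11.3) and the alkaline phosphatase Alpi (11.05) were highest, and Tmprss15 (0.34) and Mep1b (0.24) lowest, of which Mep1b reached 7.59 at another start. Tight junction genes were marked in 10 of 13 at the 5′ end and in 11 of 13 at their strongest start. Cingulin (Cgn, 16.9) and occludin (Ocln, 16.8) were highest, and Tjp1 (0.45) and Cldn2 (0.14) lowest, of which Tjp1 reached 4.73 at another start.

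The study asked how chromatin differs in normal-appearing ApcMin/+ tissue, and for these genes no difference passed the test. Over the 10 genes the mean promoter signal was 5.08 ± 2.3 in wild-type and 12.2 ± 10.5 in ApcMin/+ libraries (SD, n = 2 each, exact two-sided permutation p = 0.667, where 2 against 2 libraries cannot give less than 0.333). The ApcMin/+ libraries held the highest value, 19.6 in replicate 1, while replicate 2, at 4.79, lay between the wild-type values of 6.71 and 3.46. The same held at each of the 7 tested genes, where ApcMin/+ replicate 1 was highest and replicate 2 fell between the wild-type values.

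In the limma fit over the 9930 tested promoters, the log2 difference (ApcMin/+ minus wild type, of signal + 1) was 1.10 ± 1.19 at Myo1a, 1.04 ± 1.19 at Ush1c, 0.99 ± 1.26 at Cdhr2, 0.98 ± 1.25 at Ezr, 0.95 ± 1.26 at Vil1, 0.89 ± 1.25 at Myo7b and 0.67 ± 1.26 at Cdhr5 (± SE). The adjusted p of limma was 0.683 for 6 genes and 0.689 for Cdhr5. None of the 7 passed, beside 0 of 9930 promoters (0%), of which 132 had an unadjusted p under 0.05. The median of the 7 was 0.98, beside 0.85 over all tested promoters. The groups did not overlap, with ApcMin/+ higher, at 0 of the 7 genes and at 3820 of the 9930 promoters (38.5%). With ApcMin/+ lower they were apart at none of the 7 and at 0.161% of all.

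The size of these differences depended on ApcMin/+ replicate 1. Without it the log2 differences ran from -0.29 at Cdhr5 to 0.34 at Myo1a, with a median of -0.05, and 4 of the 7 changed sign. Without ApcMin/+ replicate 2 they ran from 1.63 to 2.03, and Myo1a and Ush1c passed with adjusted p of 0.0294 and 0.0298 in limma, as did 65.2% of all promoters in the same direction. In such a fit the lone library is assumed to vary like those of the other group. With each library centred on its median tested promoter, the differences were -0.19 at Cdhr5 and 0.04 to 0.25 at the others, with SE of 0.28 to 0.33. In that scale the groups were apart, with ApcMin/+ higher, at 1 of the 7 genes, Myo1a, and at 13.1% of all.

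**Figure D5:**
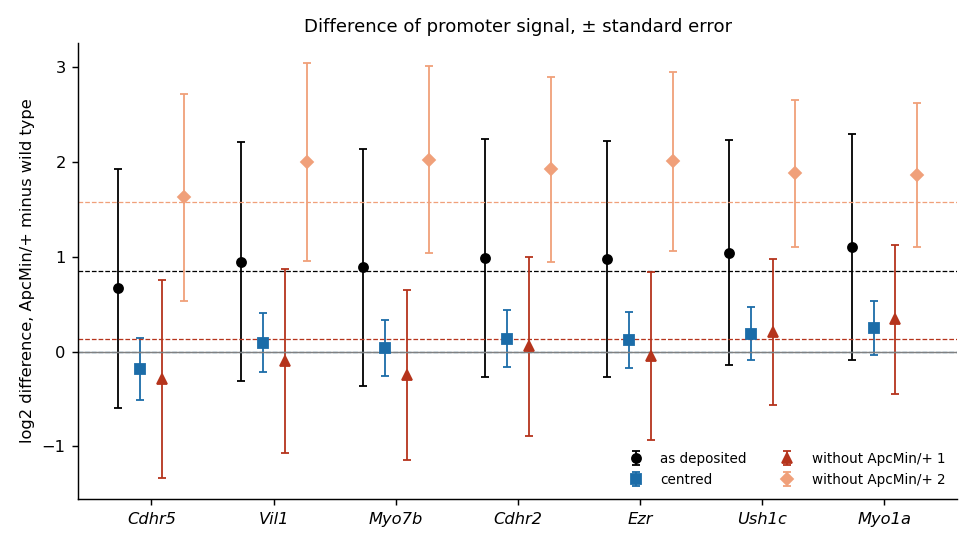
Log2 difference of promoter signal (ApcMin/+ minus wild type, ± SE from limma) at the 7 tested genes as deposited, centred on the median promoter, and without either ApcMin/+ library, with dashed lines at the median over all tested promoters. The genes follow the dashed lines in each setting, from near 2 without ApcMin/+ replicate 2 to between -0.29 and 0.34 without replicate 1.

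At the internal starts, chosen for their signal, the comparison gave similar values. The log2 difference at the strongest start was 1.21 ± 1.11 for Eps8 and 0.53 ± 1.23 for Espn (± SE, adjusted p of limma 0.682 and 0.713 over 10796 genes). The groups were apart, with ApcMin/+ higher, at Eps8, as at 37.9% of all genes by the same rule, and not at Espn. Centred on the median, the difference was 0.32 ± 0.28 at Eps8 and turned to -0.35 ± 0.29 at Espn. Without ApcMin/+ replicate 1 it was -0.23 at Espn, and without replicate 2 Eps8 passed with an adjusted p of 0.00489 in limma, as did 65.9% of all genes.

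In the lists of other brush border genes no promoter passed the test. Of all 9930 tested promoters, 38.5% had both ApcMin/+ libraries above both wild-type libraries, the share to set beside the genes named here. The median log2 difference was 0.80 over 16 core and tip genes, 0.80 over 8 linkers and motors, 0.69 over 6 traffic genes, 0.68 over 8 enzymes and 0.76 over 10 tight junction genes, beside the 0.85 over all tested promoters. Groups did not overlap, with ApcMin/+ above, at Capza1 (1.53) and the actin monomer binder Twf2 (0.93) of the core list, Rab11a (0.99) of the traffic list, the enzymes Ace (0.79) and Mgam (0.85), and the junction protein F11r (1.31), and at none of the linkers and motors. The same held at Flii (1.33) among the relatives and at Myo7a (0.79) and Whrn (0.30) among the hair cell counterparts. Of the crypt markers, 2 of the 3 tested were apart in the same direction, Mki67 (1.09), a proliferation gene, and Smoc2 (0.78). So was 1 of 7 enterocyte markers, Fabp2 (1.31). Whether these counts differ from the 38.5% of all tested promoters was not tested. The wild-type pair gave 1.39 and 1.68 at Fabp2, 1.64 and 1.56 at Twf2, and 2.09 and 1.36 at Smoc2. These genes reached the mean of 2 needed for testing only through their ApcMin/+ values, the group in which they were higher. The summed signal of the 6 crypt promoters was 12.1 and 8.5 in wild type and 31.0 and 14.6 in ApcMin/+, and its part in the members' values was not tested.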

How the data were processed

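The authors aligned paired reads to mm10 with Bowtie2, removed duplicates with Picard, kept fragments of 150 to 500 bp and a mapping quality of at least 10, and wrote coverage tracks with HOMER. The deposited values are signal: fragment coverage at each base, which the authors brought to 10000000 tags per library. No model for counts fits such values, and fragments in a window were estimated as its summed signal over that of 1 tag. Intervals cover counting error only, and the shallowest library, wild-type replicate 1, held a median of 13.0 fragments per tested promoter.

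The test was that of limma 3.58.1 with a trend, run in R 4.3.3. It used log2 of the signal plus a pseudocount of 1, and Benjamini-Hochberg adjustment over all promoters with a mean of at least 2, at a threshold of 0.05. Enriched regions came from the mean track. Bins of 100 bp with 5 times the mean of the genome or more were merged where gaps were at most 500 bp, and regions under 300 bp were dropped. Python 3.11.15, numpy 2.4.6, pandas 2.3.3, scipy 1.17.1 and pysam 0.24.0 were used. The members and lists were chosen with earlier results of these data known. All 10 members are named. From each list the genes past the threshold, or else those whose groups did not overlap, and the 2 highest and 2 lowest by level are named, and relatives of members with their level, of which 1 is counted but not reported by itself here. Alternatives were other scalings, pseudocounts of 0.1 and 5, other filters and windows, the strongest annotated start, a replicate block and leaving out each library. The classes of CpG and the motifs were chosen after seeing the data, as was the repeat of the region calls without each library. Of the 34 samples of the series, those for total H3, H3K9me3, no antibody, RNA-seq and mice of 12 weeks were not analysed here.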

Additional observations from a re-analysis of the deposited data

How the results depend on the processing

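No member passed the threshold, and all alternatives gave 0 of them except the fit without ApcMin/+ replicate 2, with 2 (0 to 2 over the fits that left out a library), which at the strongest starts called Eps8, Ezr, Myo1a and Ush1c. With the replicate block, which rests on numbers shared by the labels only (correlation of same-numbered deviations 0.196, 2 pairs), 0 members passed, adjusted p was 0.533 to 0.547 in limma, and 1 of 9930 promoters passed. The members with both ApcMin/+ libraries above both wild-type libraries, 0, became 1 when centred, with quantile normalization, with windows of 2000 bp and at the strongest start, 2 with windows of 500 bp, and 0 to 7 without a library. Over all promoters tested the share apart in this way was 38.5% as deposited, 13.1% when centred and 37.9% at the strongest start. It is not given here for the other settings. Without a library, 1 of the groups holds only 1 library, so its spread is not seen. In those fits the median log2 difference of the members ran from -0.048 to 1.92. It was negative without ApcMin/+ replicate 1, and the members that turned negative there had highest values without ApcMin/+ replicate 2: Vil1 ran from -0.098 to 2.0, Ezr from -0.048 to 2.01, Myo7b from -0.25 to 2.03 and Cdhr5 from -0.29 to 1.63. The median was 0.13 when centred. Cdhr5 was also reversed without wild-type replicate 2 (-0.002), when centred (-0.19) and with quantile normalization (-0.18), where Myo7b gave -0.0097. Espn at its strongest start was reversed when centred (-0.35) and without ApcMin/+ replicate 1 (-0.23, to 1.30 without replicate 2). These last 2 settings, and the regions called without a library, were chosen after seeing the data. The log2 ratio of the mean signal of the members was 1.26, -0.086 to 1.95 without a library, and 0.014 when centred. The median percentile, 92.0, moved to 87.4 with windows of 500 bp and 95.3 with 2000 bp. The downstream share, 78.9%, moved to 68.6% with 500 bp, 73.3% with 2000 bp and 68.6% at the strongest start. Without a library the percentile stayed between 91.1 and 92.7 and the share between 75.9% and 80.9%, and 5 or 6 members were among the widest 5% of regions. The cause of these changes was not tested. Depth limits wild-type replicate 1 most, where 1 to 42 fragments lay at a member.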
